A study of Mus musculus with 10 samples.

Results

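Parietal epithelial cells form the flat lining of Bowman's capsule, the cup that surrounds the tuft of each kidney glomerulus. The 8 genes described here are listed markers of these cells or of their activation: the transcription factor genes Pax2 and Pax8, the keratin genes Krt7, Krt8, Krt18 and Krt19, and Cd44 and Cd9, which encode surface proteins. They were taken by name from a table of 22053 mouse genes, and all 8 had a row. RNA-seq was done on kidney glomeruli from 2 groups of 5 libraries each, Col4a3 wild type and Col4a3 p.G799R, a missense change in the alpha 3 chain of type IV collagen. The labels give the genotype as the one factor, so the comparison asks how the mutant differs from the wild type. No label states zygosity, strain, age, sex or how glomeruli were isolated. Nor is it stated that each library is its own animal, and the p-values therefore cover only differences among libraries, part of which may be technical.

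PAX2 and PAX8 act in the formation of the nephron, and parietal cells of the adult kidney keep them, as do cells of the tubule. Keratins form the intermediate filaments of epithelia by pairing a type II chain (KRT7, KRT8) with a type I chain (KRT18, KRT19), and they too are shared with the tubule and its ducts. CD44, a receptor for the matrix sugar hyaluronan, is scarce on resting parietal cells and appears on activated ones in mouse models of glomerular scarring. It is also carried by leukocytes. CD9 is a membrane protein of the tetraspanin family that has been tied to the migration of activated parietal cells, and many other cell types express it.

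The values are FPKM as the authors deposited them, which are fragments scaled for transcript length and library total, so levels can be set side by side between genes. FPKM summed to 320720 to 340875 per library, absolute depth is unknown, and depth relative to wild-type library 1 was estimated at 0.861 to 1.19. That estimate ran from 0.995 to 1.19 in the wild type (mean 1.09) and from 0.861 to 1.03 in G799R (mean 0.927). Podocyte markers were abundant in every library, at a summed 3720 to 4469 FPKM over 20 genes in the wild type and 6332 to 8250 in G799R. Tubule markers moved the other way. Of 18 proximal tubule markers 18 were lower in G799R, with a summed level of 7723 to 14730 FPKM in the wild type and 929 to 2550 in G799R, and none was at 0. In the distal tubule and collecting duct list 18 of 19 were lower, at 1434 to 2093 against 189 to 566 FPKM. By the rule given in the next paragraph, 19.3% of all tested genes were called lower and 40.5% higher. The tubule score, the mean log2(FPKM + 1) of both lists, averaged 4.07 ± 0.45 in G799R against 6.5 ± 0.28 for wild-type libraries (SD, n = 5 each). In G799R libraries 3 and 4, Irf7, a regulator of the interferon response, stood at 768 and 384 FPKM, against 20.1 to 89.6 in the other 3 and 3.83 to 10.2 in the wild type. Calls of named genes that were lost without those 2 libraries are given beside the gene. In bulk RNA, fewer cells of a type and less RNA per cell cannot be told apart.

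The 8 genes did not move as 1 group. Of the 7 that could be tested, 5 fell (Pax2, Pax8, Krt7, Krt8, Krt18), Cd44 rose, and Cd9 was not called. A gene was called when its limma-trend p on log2(FPKM + 1), adjusted by Benjamini-Hochberg over the 13117 genes that averaged 0.5 FPKM or more, was below 0.05. In the same fit 19.3% of all tested genes were called lower and 40.5% higher, with a median log2 difference of 0.17, for 59.8% in either direction, while the median of the 7 was −0.79. Krt19 lay below the 0.5 FPKM minimum and was not tested. Log2 differences are G799R minus wild type on the log2(FPKM + 1) scale, which understates the change of low genes, and folds are ratios of mean FPKM.

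In the wild type the genes covered a wide range of levels. Cd9 stood at the top with 68.1 FPKM on average, followed by Krt8 (16.6), Pax8 (15.7) and Krt7 (14.3), whose library ranges overlapped. Krt18 followed at 3.47 FPKM, apart from both its neighbours, then Cd44 at 2.11 and Pax2 at 1.90, which overlapped, and Krt19 came last. In G799R the order was Cd9 (68.0 FPKM), Krt7 (9.90), Pax8 (4.68), Cd44 (4.28), Krt8 (3.60), Krt18 (1.05), Pax2 (0.679) and Krt19. There the ranges of Pax8, Cd44 and Krt8 overlapped in turn, as did those of Krt18 and Pax2. By mean level Krt8 was the highest of the 4 keratins in the wild type, and it was below Krt7 in 5 of 5 G799R libraries.

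**Figure D1:**
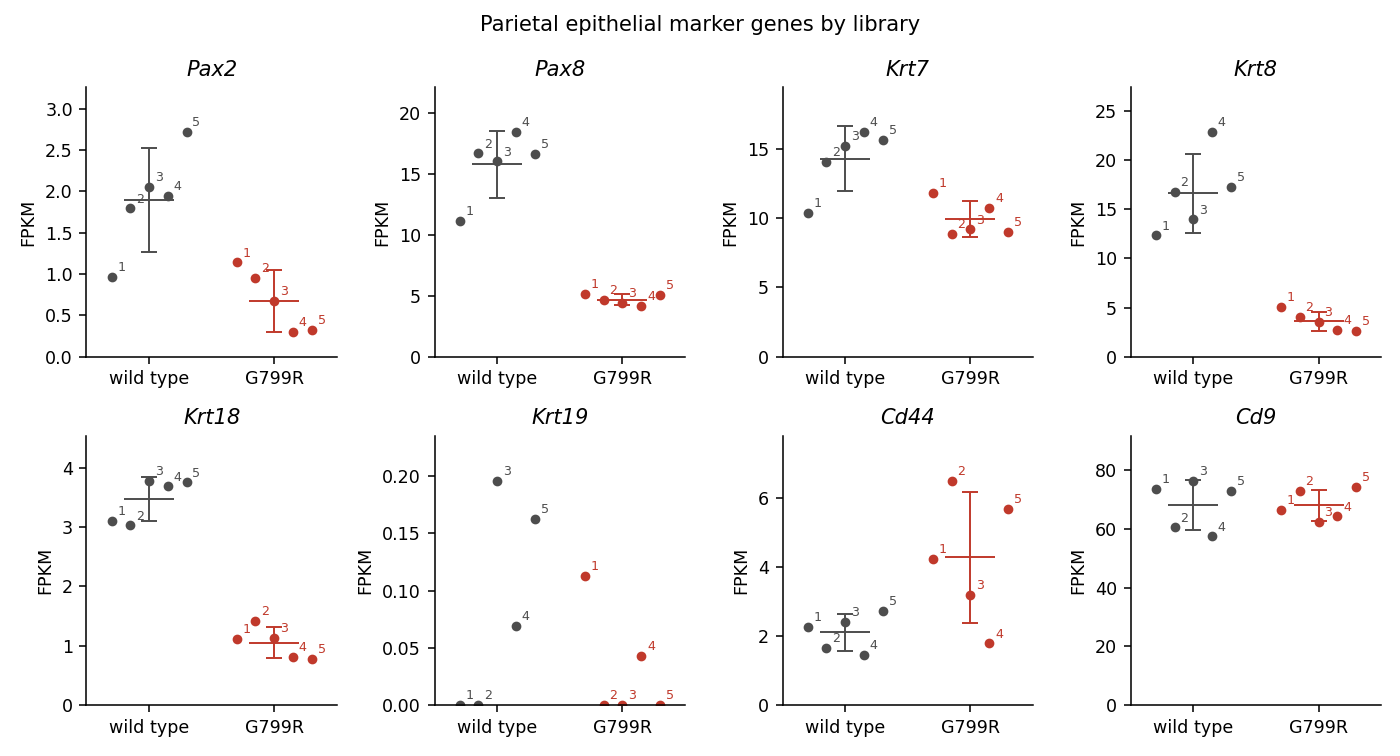
Each panel plots the FPKM of 1 gene (vertical axis) in the 5 wild-type and 5 G799R libraries, numbered by replicate, with the mean and SD as bar and whiskers, except for Krt19, which is at 0 in some libraries. Pax8, Krt8 and Krt18 separate the groups, Cd44 is above the wild type in 4 of 5 G799R libraries, and Cd9 overlaps.

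Pax8, a paired-domain transcription factor, fell 3.36-fold. Its level was 11.1, 16.7, 16.0, 18.4 and 16.6 FPKM in wild-type libraries 1 to 5 and 5.12, 4.67, 4.40, 4.14 and 5.08 in G799R libraries 1 to 5. The groups did not overlap, and the G799R libraries lay close together. The mean was 4.68 ± 0.43 FPKM against 15.7 ± 2.75 (SD, n = 5 each), a log2 difference of −1.54 ± 0.12 (SE; limma adjusted p = 3.0e-06). Among all tested genes, 15.7% had every G799R library below every wild-type library, 26.1% had the reverse, and 41.8% had either. Of these 8 genes 3 separated downward (Pax8, Krt8 and Krt18) and 0 upward.

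Pax2, its close relative, was lower in level than Pax8 in all 10 libraries. It stood at 0.969, 1.79, 2.06, 1.95 and 2.72 FPKM in wild-type libraries 1 to 5 and at 1.14, 0.956, 0.678, 0.298 and 0.323 in G799R libraries 1 to 5. Wild-type library 1 lay between the 2 highest G799R libraries, so the groups overlapped. Pax2 fell 2.79-fold, with a log2 difference of −0.79 ± 0.19 (SE; limma adjusted p = 0.0045). Set against Pax8 within each library, no difference between the 2 falls was detectable when no pseudocount was used: their log2 ratio ran from −3.52 to −2.61 in the wild type and from −3.98 to −2.17 in G799R, a change of 0.12 (exact two-sided permutation test, p = 0.77). With the pseudocount of 1 that change was 0.76 (exact permutation p = 0.0079), since Pax2 lies near 1 FPKM, where the pseudocount shrinks its difference.

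Krt8, the type II keratin of simple epithelia, fell furthest of the 8 genes. Its level was 12.3, 16.7, 14.0, 22.8 and 17.3 FPKM in wild-type libraries 1 to 5 and 5.05, 4.03, 3.52, 2.75 and 2.65 in G799R libraries 1 to 5. The groups did not overlap, and G799R libraries 4 and 5 were lowest. The fall was 4.62-fold, with a log2 difference of −1.94 ± 0.17 (SE; limma adjusted p = 6.4e-06).

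Krt18, the type I partner of Krt8 in the filament, fell as well. It stood at 3.11, 3.03, 3.78, 3.69 and 3.75 FPKM in wild-type libraries 1 to 5 and at 1.11, 1.42, 1.14, 0.808 and 0.782 in G799R libraries 1 to 5, without overlap. The fall was 3.30-fold, with a log2 difference of −1.13 ± 0.11 (SE; limma adjusted p = 1.1e-05). The falls of the partners differed in size, by a narrow margin when no pseudocount was used. That setting was chosen after seeing the data, and no fit without 1 library was run for it. Krt8 exceeded Krt18 in FPKM by 3.45 ± 0.65 times in G799R and by 4.80 ± 1.05 times in wild-type libraries (SD, n = 5 each). Their log2 ratio fell by 0.47 with no pseudocount (exact two-sided permutation p = 0.0397, adjusted over 8 pairs 0.0454) and by 0.81 with a pseudocount of 1 (exact p = 0.0079, adjusted over 10 pairs 0.0132). The second value is widened by the pseudocount, since Krt18 lies near 1 FPKM in G799R, where the pseudocount shrinks its difference. Without the pseudocount 4 of 5 G799R libraries lay below the whole wild-type range, and library 1 (4.54 times) was inside it.

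Krt7, the type II keratin of ducts and glandular epithelia, fell less. It stood at 10.4, 14.1, 15.2, 16.2 and 15.6 FPKM in wild-type libraries 1 to 5 and at 11.8, 8.82, 9.18, 10.7 and 9.01 in G799R libraries 1 to 5. Wild-type library 1 was inside the G799R range. The fall was 1.44-fold (log2 difference −0.48 ± 0.12 SE; limma adjusted p = 0.0055). Krt19, a type I keratin that pairs with KRT7 and KRT8, was close to 0 throughout: wild-type libraries 1 and 2 and G799R libraries 2, 3 and 5 were listed at 0, and the other 5 ranged from 0.043 FPKM in G799R library 4 to 0.196 in wild-type library 3. Pairs with Krt19 therefore reflect the partner gene and the pseudocount, and the Krt7 to Krt19 ratio difference of −0.41 (exact permutation p = 0.0159) shrank to −0.094 (adjusted p = 0.73) with a pseudocount of 0.1.

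Krt8 and Krt18 are neighbours on mouse chromosome 15, at 101996698 to 102004482 on the minus strand and at 102028180 to 102032027 on the plus strand, 23697 bases apart and read away from each other. Pax8 lies on chromosome 2 at 24420560 to 24475599 and Cd44 on the same chromosome at 102811141 to 102901665. These positions are from GENCODE M21 on GRCm38, looked up by gene identifier, and the build behind the deposited values is not stated. The 100 bases before the first annotated start are shown for the 3 genes that separated the groups downward, for Cd44, which rose, and for Cd9, which was not called, to set the start regions of genes with different behaviour side by side. Sequences are from RefSeq promoter windows of build GRCm38.p6, which were found for 7 of the 8 genes, and run 5′ to 3′ on the gene's strand. Capitals mark matches to the CCAAT box (CCAAT) or the GC box (GGGCGG) on either strand; these motifs do not overlap here.
Krt8 (chr15:102004483-102004582, minus strand): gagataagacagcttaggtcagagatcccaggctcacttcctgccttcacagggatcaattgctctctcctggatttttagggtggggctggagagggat
Krt18 (chr15:102028080-102028179, plus strand): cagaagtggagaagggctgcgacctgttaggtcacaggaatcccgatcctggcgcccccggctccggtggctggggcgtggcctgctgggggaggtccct
Pax8 (chr2:24475600-24475699, minus strand): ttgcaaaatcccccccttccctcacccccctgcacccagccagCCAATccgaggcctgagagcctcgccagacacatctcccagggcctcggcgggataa
Cd44 (chr2:102901666-102901765, minus strand): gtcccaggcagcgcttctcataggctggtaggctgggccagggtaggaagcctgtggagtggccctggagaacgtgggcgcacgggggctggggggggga
Cd9 (chr6:125494792-125494891, minus strand): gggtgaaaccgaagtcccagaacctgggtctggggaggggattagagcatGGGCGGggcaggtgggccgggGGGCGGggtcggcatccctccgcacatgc

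Pax8 held 1 CCAAT box and Cd9 held 2 GC boxes in these windows. Of 32851 RefSeq windows of the 100 bases before a start, 18.9% held a CCAAT box and 24.7% a GC box. Neither the TATA box (TATAAA, in 5.56% of windows) nor the AP-1 motif (TGANTCA, in 2.73%) had a match in these 5 windows on either strand. The GC content was 52% for Krt8 and 65% to 70% for the other 4, with a median of 55% over all windows. The keratin partners thus differed in base composition at their starts, and no searched motif was shared by the windows of Pax8, Krt8 and Krt18. Pax2 and Krt7, which also fell, were not searched.

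Libraries low in tubule markers were in part the ones low in these genes. Within the wild type, library 1 had the lowest tubule score (6.04, against 6.48 to 6.78 in the other 4) and the lowest Pax2, Pax8, Krt7 and Krt8, while Krt18 was lowest in library 2. Within G799R, libraries 4 and 5 had the lowest tubule scores (3.53 and 3.64, against 4.34 to 4.5) and the lowest Pax2, Krt8 and Krt18, whereas Pax8 in library 5 and Krt7 in library 4 were each the second highest of their group. The median log2 difference of the tested markers was −2.91 for proximal tubule and −2.10 for distal tubule and collecting duct, beyond the −1.94 of Krt8. With the tubule score as a covariate, none of the 13117 genes was called by limma, Pax8 stood at −0.78 and Krt8 at −0.16, and the score ranges of the groups do not overlap, so genotype and tubule RNA cannot be told apart for these genes.

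Cd44, the hyaluronan receptor, rose 2.03-fold, from 2.11 ± 0.53 to 4.28 ± 1.89 FPKM (SD, n = 5 each). It stood at 2.27, 1.67, 2.42, 1.46 and 2.73 FPKM in wild-type libraries 1 to 5 and at 4.23, 6.498, 3.19, 1.79 and 5.68 in G799R libraries 1 to 5. All G799R libraries but library 4 were above the whole wild-type range, and that one was inside it. On the log2 scale it gained 0.70 ± 0.24 (SE; limma adjusted p = 0.0276). Leaving out wild-type library 2 or 4, or G799R library 1, 2 or 5, each ended the call (log2 differences 0.55 to 0.68, adjusted p 0.053 to 0.067), and under median-of-ratios scaling (0.57, adjusted p = 0.0633). Scaled to equal glomerular markers, Cd44 stood at 0.20 (95% interval −0.29 to 0.70, limma adjusted p = 0.44). Without G799R libraries 3 and 4, which held the lowest Cd44 of their group (3.19 and 1.79 FPKM), it rose by 1.06 (limma adjusted p = 0.0012). That fit called 36.9% of genes higher, 17.3% lower and 54.2% in either direction.

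Within each library Cd44 gained on the genes that fell. Krt8, Pax8 and Krt18 separated the groups by themselves, and Pax2 and Krt7 also fell. These ratios therefore carry those falls too and do not test Cd44 on its own. The log2 ratio of Cd44 to Krt8 went from −2.49 ± 0.51 to 0.14 ± 0.56, a gain of 2.63, and that of Cd44 to Pax8 gained 2.24. The gains on Krt18 and Pax2 were 1.83 and 1.48. In these 4 pairs 5 of 5 G799R libraries lay above every wild-type library (exact two-sided permutation p = 0.0079, the smallest that 5 against 5 libraries allow; adjusted over 10 pairs 0.0132). The gain on Krt7 was 1.18 (exact p = 0.0159, adjusted 0.0198). Against Cd9 it was 0.69, with 4 of 5 libraries above the wild type (exact p = 0.0397, adjusted 0.0397), and this call was lost in each of 9 of the 10 fits without 1 library. The pair with Krt19 gave 0.77 (exact p = 0.0317, adjusted 0.0353), and its call too was lost in 9 of the 10 fits without 1 library. A ratio within a library does not depend on scaling when no pseudocount is used, a setting chosen after seeing the data. The gains were then 3.14 on Krt8, 2.66 on Pax8, 2.67 on Krt18, 2.53 on Pax2, 1.44 on Krt7 and 0.92 on Cd9. The exact permutation p was 0.0079 for the first 4, 0.0238 for Krt7 and 0.0317 for Cd9.

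**Figure D2:**
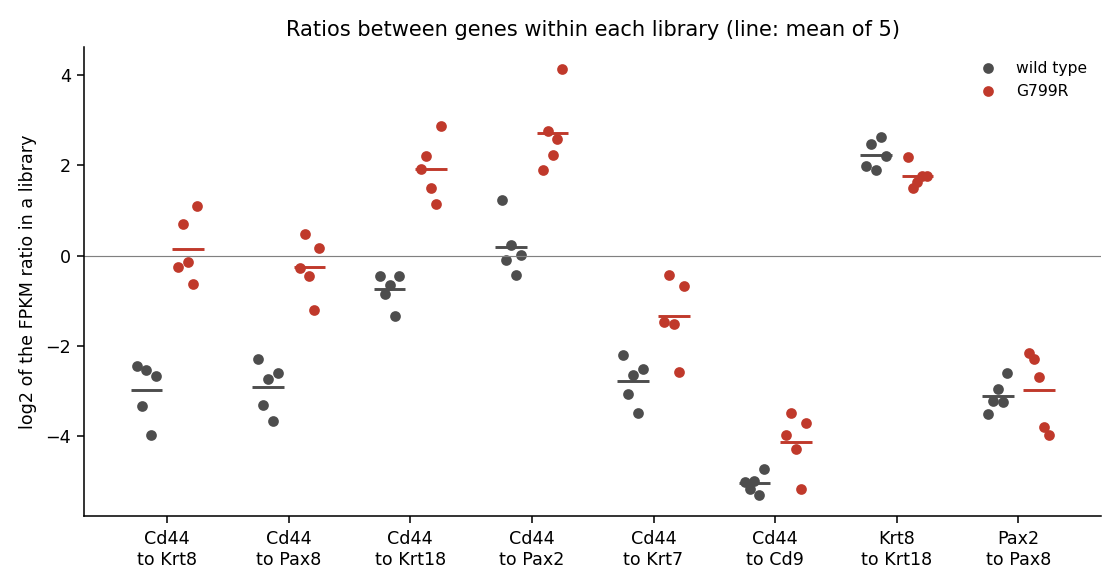
The vertical axis is the log2 ratio of the FPKM of 2 genes in the same library, with no pseudocount, for 8 pairs (horizontal axis), with points for the 5 wild-type and 5 G799R libraries and lines at the group means. The ratios of Cd44 to Krt8, Pax8, Krt18 and Pax2 do not overlap between groups, and the ratio of Pax2 to Pax8 does.

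Leukocytes also express Cd44, and macrophage and myeloid markers were higher in the same libraries. Of 19 such markers tested 12 rose and 0 fell, beside 40.5% and 19.3% of all tested genes. Their summed level went from 74.8 to 172 FPKM in the wild type to 183 to 326 in G799R, and none of the 20 listed was at 0 in every library. The mean log2(FPKM + 1) of the list was lowest in wild-type libraries 4 and 2 (1.76 and 1.90) and in G799R library 4 (2.51), which had the lowest Cd44 of their groups, and highest in G799R library 2 (3.44), which had the highest Cd44. Other libraries did not keep that order: wild-type library 1 had the highest list mean of its group (2.67) with a Cd44 of 2.27 FPKM, below the 2.73 of library 5 (2.22), and G799R library 1 (3.30) had less Cd44 than library 5 (2.96). Ptprc, the pan-leukocyte marker CD45, rose 2.15-fold, from 6.95 ± 1.32 to 14.9 ± 4.05 FPKM (limma adjusted p = 0.0013). Among lymphocyte markers 8 of 15 could be tested, with 1 higher and 1 lower. With glomerular markers set equal, 5 of the 19 macrophage and myeloid markers were called higher and 0 lower (median 0.29). Among all tested genes that scaling called 4.11% higher and 64.7% lower (median −0.42). Ptprc was not called under it (0.35, limma adjusted p = 0.107). The part of these cells in the Cd44 difference was not tested.

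Cd9 did not differ detectably between the groups in FPKM as deposited. It stood at 73.5, 60.5, 76.3, 57.4 and 72.7 FPKM in wild-type libraries 1 to 5 and at 66.4, 72.7, 62.3, 64.2 and 74.2 in G799R libraries 1 to 5. The means were 68.1 ± 8.52 and 68.0 ± 5.25 FPKM (SD, n = 5 each), and all 5 G799R libraries lay inside the wild-type range. The log2 difference was 0.0035, with a 95% interval of −0.20 to 0.20 (limma adjusted p = 0.98). Scaled to equal glomerular markers Cd9 was called lower (−0.67, adjusted p = 8.5e-05).

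**Figure D3:**
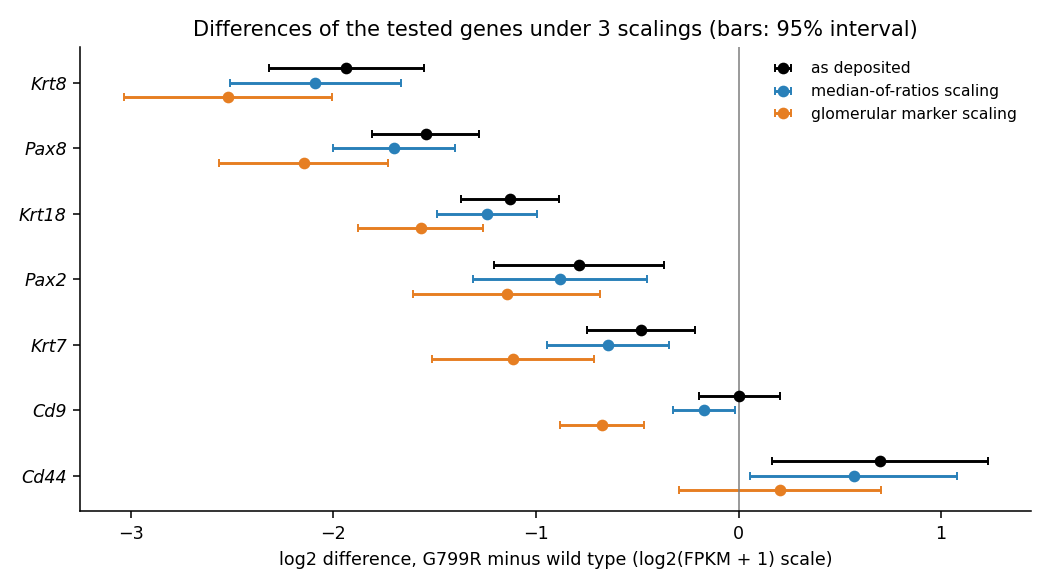
Points are log2 differences (horizontal axis, G799R minus wild type) of the 7 tested genes, with 95% intervals, in FPKM as deposited, under median-of-ratios scaling and under scaling to equal glomerular markers. Krt8, Pax8, Krt18, Pax2 and Krt7 are below 0 under the 3 scalings, Cd44 spans 0 under glomerular marker scaling, and Cd9 moves from 0.0035 to −0.67.

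The falls kept their direction under both other scalings, and their size changed. Under median-of-ratios scaling Krt8, Pax8, Krt18, Pax2 and Krt7 stood at −2.09, −1.70, −1.24, −0.88 and −0.65. With glomerular markers set equal they stood at −2.52, −2.15, −1.57, −1.15 and −1.11, and 6 of the 7 genes were called lower and 0 higher. Under that scaling 64.7% of all tested genes were called lower and 4.11% higher, 68.8% in all, with a median of −0.42. Under median-of-ratios scaling 25.5% were lower and 23.3% higher, 48.8% in all, and after quantile normalisation 20.8% and 35.5%, 56.3% in all.

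Other genes used to mark parietal cells were also divided, as were all tested genes (40.5% higher, 19.3% lower). Of 10 listed, 9 could be tested, 3 rose and 2 fell, with a median log2 difference of 0.34. With glomerular markers set equal 1 was higher and 2 lower (median −0.21), beside 4.11% and 64.7% of all tested genes. The number higher was 6 without wild-type library 1, 5 without G799R library 5 and 2 without G799R library 4. Aldh1a2, which makes retinoic acid, rose 2.39-fold, at 8.40 to 11.7 FPKM in the wild type and 19.1 to 28.0 in G799R (limma adjusted p = 1.2e-05), and stayed higher with glomerular markers set equal (0.53, adjusted p = 0.0099). Akap12, a scaffold of protein kinase A, rose 1.83-fold, from 10.9 to 19.4 FPKM to 25.7 to 39.5, and was not called under that scaling (0.19). Cldn1, a tight junction claudin of Bowman's capsule, rose 1.26-fold, from 5.98 ± 0.44 to 7.56 ± 1.08 FPKM (adjusted p = 0.0221), and was named after its values were seen. It turned to −0.31 under that scaling, and its call was also lost under median-of-ratios scaling (0.13, adjusted p = 0.31), without G799R libraries 3 and 4 together (adjusted p = 0.0757), and without G799R library 2 or 4 alone (adjusted p up to 0.0555). Prom1, which encodes the progenitor marker CD133 and is also found in tubule, fell 3.79-fold, and Lad1, an anchoring filament protein, fell 6.43-fold, both without overlap between groups. Cdh6 was below the 0.5 FPKM minimum.

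Ligands and partners of CD44 moved both ways, as did all tested genes (40.5% higher, 19.3% lower). Of 15 listed, 11 could be tested, 5 rose and 3 fell, with a median of 0.08. With glomerular markers set equal 2 were higher and 6 lower (median −0.41), beside 4.11% and 64.7% of all tested genes. Without G799R library 1 the number higher was 3. Spp1, which encodes the secreted ligand osteopontin and is abundant in tubule, fell 4.25-fold from 153 to 405 FPKM in the wild type to 36.4 to 81.5 in G799R. Mif, a cytokine whose receptor complex contains CD74 and CD44, fell 2.85-fold, and Ddt, its homologue, 2.77-fold. Cd74 rose, from 87.6 ± 55.9 to 175 ± 61.7 FPKM (limma adjusted p = 0.0222), with overlapping groups. Its call was lost with glomerular markers set equal (0.45, adjusted p = 0.21) and without any 1 of wild-type libraries 2 and 4 and G799R libraries 1 and 2 (adjusted p up to 0.0551). Msn, which links CD44 to actin, rose 1.86-fold without overlap. The hyaluronan synthase genes Has1 and Has2 were at or below 0.204 and 0.013 FPKM in all libraries and were not tested, and Has3 had 0.593 ± 0.05 against 0.686 ± 0.12 FPKM (adjusted p = 0.47).

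Among 14 partners and relatives of CD9, 8 rose and 2 fell, with a median of 0.48, beside 40.5% and 19.3% of all tested genes. With glomerular markers set equal 1 was higher and 5 lower (median −0.15), beside 4.11% and 64.7%. Cd151 and Cd81, tetraspanins, rose 1.5-fold and 1.44-fold, and Itga3, the laminin-binding integrin chain that pairs with them, rose 1.66-fold, while Cd63, a tetraspanin of lysosomes, fell 2.43-fold. With glomerular markers set equal Cd151 and Cd81 turned to −0.10 and −0.16 and Itga3 to 0.045, and none of them passed (adjusted p 0.13 to 0.64). Ptgfrn and Igsf8 encode direct binding partners of CD9. Ptgfrn rose 1.68-fold, from 1.33 ± 0.28 to 2.25 ± 0.27 FPKM, and was not called with glomerular markers set equal (0.052, adjusted p = 0.68). Igsf8, with 9.98 ± 0.56 against 8.99 ± 1.51 FPKM, missed the threshold (limma adjusted p = 0.21). It was called lower under median-of-ratios scaling (−0.31, adjusted p = 0.0213), with glomerular markers set equal (−0.77, adjusted p = 0.00057) and without G799R library 1 (−0.23, adjusted p = 0.0238). Hbegf, a growth factor whose precursor associates with CD9, rose 1.33-fold (adjusted p = 0.0393), turning to −0.21 with glomerular markers set equal. Its call was also lost under median-of-ratios scaling (0.24, adjusted p = 0.165), without G799R libraries 3 and 4 together (adjusted p = 0.13), and without any 1 of wild-type libraries 2, 4 and 5 and G799R libraries 1, 3, 4 and 5 (adjusted p up to 0.0887). Its receptor gene Egfr, also of tubule cells, fell 4.01-fold without overlap.

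Of 12 other keratins listed, 10 were below the 0.5 FPKM minimum. Krt10, a type I keratin of stratified epithelia, ranged from 1.18 to 2.49 FPKM in the wild type and from 0.882 to 2.89 in G799R and was not called (limma adjusted p = 0.80). Krt80, a type II keratin, was higher in mean level than any of the 4 listed keratins in both groups. It rose 1.53-fold, from 18.7 to 30.3 FPKM to 28.7 to 40.4 (limma adjusted p = 0.0030), turning to −0.059 with glomerular markers set equal. The stratified-epithelium keratin genes Krt5, Krt14 and Krt13 reached 0.795, 0.514 and 0.693 FPKM in wild-type library 4, were lower in wild-type libraries 2 and 3, and were listed at 0 in the other 7 libraries. The 9 urothelial markers summed to at most 1.46 FPKM in any library.

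Of 11 tested genes for other intermediate filaments and their linkers 6 rose and 2 fell, with a median of 0.42. Among all tested genes 40.5% rose and 19.3% fell. With glomerular markers set equal 1 was higher and 4 lower (median −0.22), beside 4.11% and 64.7% of all. Vim, the filament protein of mesenchymal cells and podocytes, rose 1.56-fold from 202 ± 23.2 FPKM and turned to −0.045 with glomerular markers set equal. Nes, the podocyte filament nestin, rose 1.94-fold and was the 1 gene called higher with glomerular markers set equal (0.27, limma adjusted p = 0.0239). Nes, and Des of the same list, are themselves among the markers that this scaling sets equal. Their values under it are therefore no separate check. The desmosomal linkers of keratin, Dsp and Evpl, fell 2.23-fold and 2.44-fold, both without overlap between groups.

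Transcription factors that act beside the PAX genes in the nephron fell in most cases. Of 15 tested 11 fell and 2 rose, with a median of −1.37. In the same fit 19.3% of all tested genes fell and 40.5% rose. Lhx1, a factor of the forming nephron, fell 3.56-fold without overlap. Hnf4a, which runs proximal tubule genes, fell 7.56-fold. Wt1, the podocyte factor known to repress Pax2, rose 1.92-fold, from 109 ± 7.72 to 210 ± 29.8 FPKM. Wt1 is itself among the podocyte markers that the glomerular scaling sets equal. Its value under that scaling (0.24, limma adjusted p = 0.085) is therefore no separate check. Of 13 tested cell cycle genes Mcm3 and Pcna rose, 1.53-fold and 1.32-fold, and 0 fell, beside 40.5% and 19.3% of all tested genes. With glomerular markers set equal both turned to below 0 (−0.059 and −0.27, not called). Under that scaling 0 of the 13 were called higher and 1 lower, beside 4.11% and 64.7% of all. Pcna was also not called under median-of-ratios scaling (0.22, adjusted p = 0.0868).

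**Figure D4:**
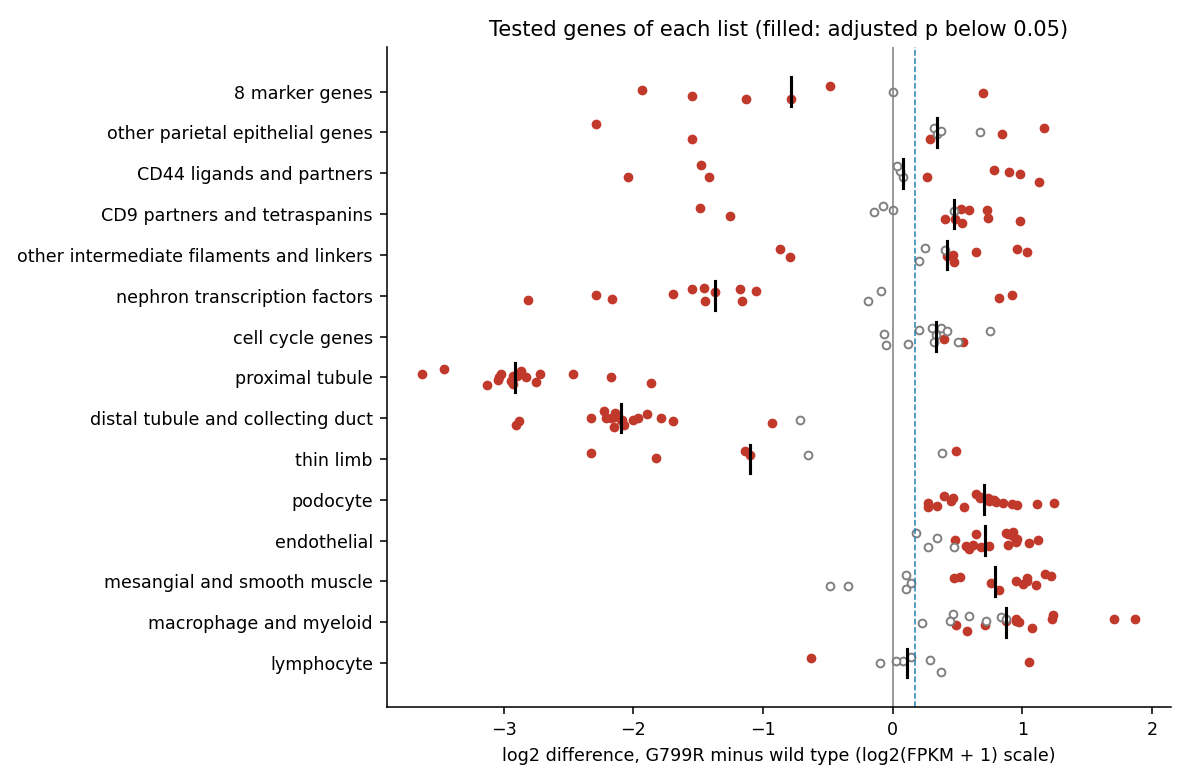
Each point is a tested gene, placed by its log2 difference (horizontal axis, G799R minus wild type), with filled points for an adjusted p below 0.05, black bars for list medians and a dashed line at the median of all genes, 0.17. The tubule lists lie below 0, the podocyte, endothelial and mesangial lists mostly above, and the 8 marker genes and the other parietal genes span both sides.

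Genes whose libraries varied most like each member were ranked by Pearson's r of their deviations from the group means of log2(FPKM + 1) over 10 libraries, among genes of at least 1 FPKM. Nearest to Krt8 were Prss8, Gm2a and Keg1 (r of 0.979, 0.972 and 0.972), with log2 differences of −2.68, −0.87 and −3.07 between the groups. Nearest to Pax2 was Sema4a (r of 0.976, log2 difference −1.58), and nearest to Pax8 was Iars2 (0.970, at 0.0074). Nearest to Krt18 was Atp6v0d2, a proton pump subunit of the collecting duct, with an r of 0.974 and a log2 difference of −2.10. Nearest to Krt7 was March9 (0.959, at −0.19), to Cd9 Tshz3 (0.971, at 0.59) and to Krt19 Ccdc189 (0.979, at −0.47). Krt19 was at most 0.196 FPKM in any library, so its r carries little meaning. Nearest to Cd44 were Jarid2, Ampd2 and Atp2b4 (0.965, 0.960 and 0.948), with log2 differences of 0.098, 0.16 and −0.35. None of them was called higher, and Atp2b4 was called lower (limma adjusted p = 0.0397). These nearest genes top a ranking over all genes of that level and are given as a description.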

How the data were processed

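Kidney glomeruli of 10 mouse libraries were measured by RNA-seq. TRIzol was used for RNA and NEBNext Ultra for the libraries, per the labels' protocols. FPKM values were deposited by the authors per Ensembl identifier, with 1 column per library. Absolute depth cannot be had from them. The submitters' processing notes name HISAT2, RSEM, StringTie 1.3.1, fastp 0.18.0 and Bowtie2 2.2.8, without roles. Symbols were found for 21963 of 22053 identifiers. The 13117 genes averaging 0.5 FPKM or more were analysed as log2(FPKM + 1) with limma-trend (limma 3.58.1, R 4.3.3). The fit was checked on simulated data. Glomerular marker scaling set podocyte, endothelial and mesangial markers equal between libraries. Ratios of 10 gene pairs were tested by exact two-sided permutation (scipy 1.17.1). Members, lists and tests were chosen with earlier results of these data known. Named genes were the members, up to 4 tested genes per list with the smallest p, direct partners of members, and the 3 genes most like each member. Some genes that this rule names are not reported here. Counting does not state strand, so reads of genes that overlap Pax2, Pax8, Krt7, Krt8, Cd44 and Cd9 cannot be told apart from theirs, and Krt8 and Cd9 each have 1 named pseudogene. Alternatives are given in the closing section.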

Additional observations from a re-analysis of the deposited data

Results flagged for a closer look

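Of 81 groups of 5 libraries examined over 41 genes, 4 held a library whose gap to its nearest neighbour exceeded 0.71 of the group's range, and chance flags about 1 in 20. None was a group of the 8 marker genes. Lad1 stood at 29.5 FPKM in wild-type library 5, above 13.2 to 15.1 in the other 4. Pcna stood at 32.6 FPKM in G799R library 3, the lowest of its group, and Hbegf at 12.4 FPKM in the same library, the highest. Has2 was listed above 0 in 1 library, wild-type library 2 (0.013 FPKM).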

How the results depend on the processing

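The falls of Pax8, Krt8, Krt18, Krt7 and Pax2 were called in every fit that tested them except that with the tubule score as a covariate, where 0 members and 0 of all genes were called in either direction; with a 2 FPKM filter Pax2 is not tested. Under that covariate Pax2 turned to 1.11, Krt7 to 0.14, Cd9 to −0.32, Spp1 to 0.50, Krt80 to −0.62, Evpl to 0.45, Pcna to −0.26, Cd81 to −0.022, Igsf8 to 0.028 and Hbegf to −0.11. Members called higher went from 1 (Cd44) to 0 under median-of-ratios and glomerular marker scaling, and ranged from 0 to 1 when 1 library was left out. All genes called higher and lower went from 5308 and 2537 to 3057 and 3341 under median-of-ratios scaling and to 539 and 8486 under glomerular marker scaling, and ranged from 4616 to 5587 and from 2374 to 2582 without 1 library. Cd9 turned to −0.17 under median-of-ratios scaling, −0.069 under quantile normalisation and −0.67 under glomerular marker scaling, and ranged from −0.055 to 0.046 without 1 library. Glomerular marker scaling also turned Cd151 (−0.10), Krt80 (−0.059), Vim (−0.045), Mcm3 (−0.059), Pcna (−0.27), Has3 (−0.19), Cd81 (−0.16), Hbegf (−0.21) and Cldn1 (−0.31). The replicate block kept these calls of the 7 tested genes (Cd44 adjusted p = 0.0177), and same-numbered libraries share only a number (r of their deviations from −0.085 to 0.048). A block of 5 pairs cannot give an exact p below 0.0625, so with it no ratio was called, at unchanged differences: Cd44 to Pax2 1.48, to Pax8 2.24, to Krt7 1.18, to Krt8 2.63, to Krt18 1.83, to Krt19 0.77, to Cd9 0.69, Krt8 to Krt18 −0.81, Krt7 to Krt19 −0.41 and Pax2 to Pax8 0.76. Without 1 library, Cd44 to Krt19 ranged from 0.61 to 0.98 and Cd44 to Cd9 from 0.57 to 0.88. Krt7 to Krt19 was not called with a pseudocount of 0.1 (−0.094) or without G799R libraries 3 and 4 (−0.42), nor Pax2 to Pax8 at 0.1 (0.27) or, chosen after seeing the data, with no pseudocount (0.12). The cause was not tested. Absolute depth is unknown, which limits Krt19 and Pax2 most.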
